A study of Mus musculus with 7 samples.

Results

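The subject is 9 chemokine receptor genes of lung CD11b+ conventional dendritic cells (cDC2s): Ccr7, Cxcr4, Ccrl2, Ccr1, Ccr2, Cx3cr1, Ccr6, Cxcr3 and Ccr9. They were picked by gene symbol, and all 9 had 1 probeset of their own among 19939 genes measured. The sort took cells positive for CD11c, MHC-II and CD11b and negative for Ly6C and CD64, and they came from female mice on a C57Bl/6 background. Each of 7 arrays held RNA of 1 pool from 10 mice, taken 12 hours after treatment. The untreated group was wild type given PBS (2 arrays), the treated wild type group received 100 µg of house dust mite extract (2 arrays), and the Irf3 deficient group received the same dose of extract (3 arrays). Irf3 encodes a factor through which innate sensors induce interferon beta. Irf3 deficient mice given PBS were not analysed here, so an effect of genotype alone and one that needs the extract cannot be told apart. The labels do not describe the deficient allele or the route of treatment.

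Chemokine receptors are G protein-coupled receptors that steer cells along gradients of chemokines. A dendritic cell in a tissue uses receptors for inflammatory and tissue chemokines, and on maturation it gains CCR7, which follows CCL19 and CCL21 into lymphatic vessels and the lymph node. The change from tissue receptors to CCR7 is a textbook feature of dendritic cell maturation. The question here is how far the receptor genes of each kind moved after the extract in wild type. A further question is where they stood in treated cells without Irf3.

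Irf3 stood at 8.13 to 8.30 on the log2 scale in the Irf3 deficient arrays and at 9.48 to 9.59 in the wild type arrays, so the labels hold. Over all genes, correlations were 0.995 to 0.997 within groups and 0.973 to 0.990 between them. All 10 markers of cDC2s in a chosen list (Itgax, Itgam, H2-Ab1, Sirpa, Flt3, Zbtb46, Irf4, Clec10a, Cd209a and Mgl2) were above the lower quartile of gene means (6.70) in every group. Their mean level lay at 12.0 to 12.4 in all arrays. Of the 10, 4 fell and 1 rose in treated wild type (Itgam at -1.06 and Mgl2 at -0.56 among the falls). The shares over all genes were 9.23% and 8.35%. In Irf3 deficient against treated wild type cells, 5 were higher and 1 lower (Itgam at 0.72 and Mgl2 at 0.59). There the shares over all genes were 10.7% and 9%. Markers of monocytes and macrophages were also well above that quartile, although the gate was set against Ly6C and CD64. The mean level over all arrays was 6.88 to 7.12 for 4 measured B cell markers, 6.34 to 6.54 for 5 of eosinophils and mast cells, and 9.42 to 10.01 for 7 of cDC1s, the other conventional dendritic cells. The pools are separate samples by their labels, and p-values measure the spread between these pools.

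In wild type cells the lymph node homing receptor rose after the extract and 4 of the 6 tissue and inflammatory receptors fell. Ccr7 rose 1.48-fold, while Cx3cr1 fell 2.76-fold, Ccr2 2.15-fold, Ccr1 1.98-fold and Cxcr3 1.35-fold. Of the 9 receptors, 5 passed, 1 higher and 4 lower, in a comparison where 17.6% of all genes passed (8.35% higher and 9.23% lower). The other tissue receptors, Ccr6 and Ccr9, did not pass. The call for Cxcr3 was lost under 5 of 16 alternatives, which leaves 3 of the 6 fallen and 4 of the 9 passed. A called change of at least 2-fold was seen in 2 of the 9 (Cx3cr1 and Ccr2), against 3.36% of all genes. The median difference of the 9 receptors was -0.26, against 0.03 over all genes. The arrays of the 2 groups did not overlap for 6 of the 9, against 52.6% of all genes.

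**Figure D1:**
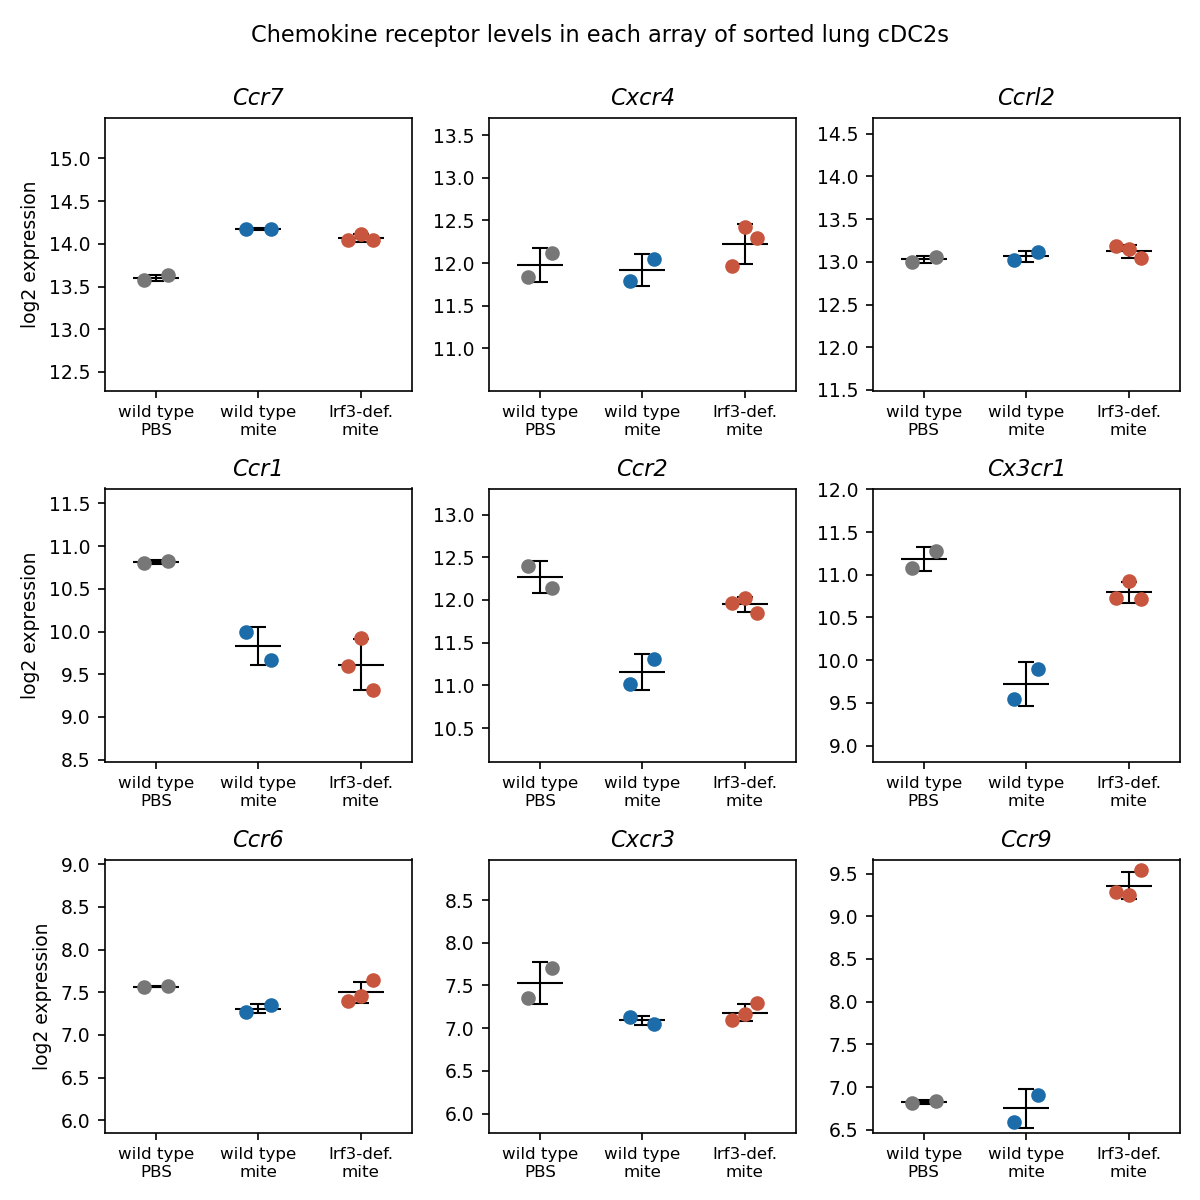
Log2 expression of each receptor (vertical axes, each spanning the same 3.2 log2 units around its own midpoint) in each array (points) of the 3 groups, with the group mean (wide bar) and SD (whiskers). Ccr7 is higher in both treated groups, Ccr1 is lower in both, Ccr2 and Cx3cr1 are lowest in treated wild type, and Ccr9 is high in the Irf3 deficient arrays.

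Ccr7 read 13.58 and 13.63 after PBS, 14.18 and 14.17 after the extract, and 14.04, 14.12 and 14.05 after the extract without Irf3. Every treated array of either genotype lay above both untreated arrays. The rise in wild type was 0.57 ± 0.07 (SE) on the log2 scale (95% CI of the fold 1.33 to 1.64, adjusted p = 9.74e-05). Treated Irf3 deficient cells stood 0.46 ± 0.06 above untreated wild type (1.38-fold, 95% CI 1.25 to 1.52, adjusted p = 0.000681). Between the treated genotypes the difference was -0.10 with a 95% CI of -0.24 to 0.03 (adjusted p = 0.336). The Irf3 deficient arrays were all below the treated wild type arrays, but the difference did not pass. Its interval bounds a shortfall in array signal at 1.18-fold. Ccr7 was brighter by mean than 99.9% of genes, and whether its signal follows RNA in proportion at that level was not tested.

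Other genes of dendritic cell maturation moved with Ccr7 in wild type. Of 8 measured genes in a list of 10 (Fscn1, Ccl22, Tmem123, Socs2, Cd40, Birc2, Relb and Traf1), 8 rose in treated wild type, with a median of 0.99. The share over all genes was 8.35%. Without Irf3, 6 of the 8 were lower than in treated wild type (median -0.49), among them the actin-bundling gene Fscn1 at -0.50 (adjusted p = 0.000282) and the NF-kB subunit gene Relb at -0.97 (adjusted p = 7.83e-05). Between the treated genotypes 9% of all genes were lower. Against untreated wild type, 7 of the 8 were higher in treated Irf3 deficient cells, beside 5.89% of all genes. Whether the shift of Ccr7 differs from that of these genes was not tested.

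Cxcr4, the CXCL12 receptor that holds many leukocytes in bone marrow and tissue, did not pass in any comparison. It read 11.84 and 12.12 after PBS, 11.79 and 12.05 after the extract, and 11.97, 12.42 and 12.29 after the extract without Irf3. The groups overlap. The difference in wild type was -0.06 (95% CI -0.39 to 0.26), and between the treated genotypes 0.31 (95% CI 0.01 to 0.60, adjusted p = 0.154). Without replicate 1 of the Irf3 deficient group, its lowest array, the latter became 0.43 (adjusted p = 0.0221), and without replicate 1 of treated wild type 0.18 (adjusted p = 0.581).

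Ccrl2 encodes an atypical receptor that binds the attractant chemerin without classical signalling and can present it to other cells. It had the narrowest spread of the 9 genes, at 13.00 and 13.06 after PBS, 13.02 and 13.11 after the extract, and 13.18, 13.15 and 13.04 after the extract without Irf3. The wild type difference was 0.03 (95% CI -0.15 to 0.22), and its sign depended on the scaling (-0.10 after quantile normalisation). The largest change in array signal its intervals allow in any of the 3 comparisons is 1.20-fold. Ccrl2 too was a bright probeset, above 99.2% of genes by mean.

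Cx3cr1, the fractalkine receptor, is carried by patrolling monocytes and many tissue macrophages and by part of the cDC2s. It read 11.08 and 11.28 after PBS, 9.54 and 9.90 after the extract, and 10.73, 10.93 and 10.72 after the extract without Irf3. The 3 groups do not overlap, and the Irf3 deficient arrays lie between the wild type groups. The fall in wild type, -1.46 ± 0.14 (SE; 95% CI of the fold 2.23 to 3.41, adjusted p = 1.2e-05), ranked 33 from the bottom among all 19939 genes. Irf3 deficient cells stood 2.11-fold above treated wild type (log2 difference 1.08 ± 0.13, 95% CI of the fold 1.74 to 2.56, adjusted p = 7.86e-05).

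Against untreated wild type, Cx3cr1 in treated Irf3 deficient cells was -0.39 (95% CI -0.66 to -0.11, adjusted p = 0.077), which did not pass. It passed when only the arrays of these groups were fitted (adjusted p = 0.036) and without replicate 1 (0.0382) or replicate 2 (0.0386) of treated wild type, at the same difference. This comparison shares its arrays with both others, so its values stand beside them and are no independent check.

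Ccr2, the CCL2 receptor that brings monocytes and their descendants into inflamed tissue, had the same order of groups. It read 12.40 and 12.14 after PBS, 11.01 and 11.31 after the extract, and 11.97, 12.02 and 11.85 after the extract without Irf3. The treated wild type arrays were the lowest, and no group overlapped another. The fall in wild type was -1.11 ± 0.12 (SE; 95% CI of the fold 1.79 to 2.60, adjusted p = 4.59e-05). Irf3 deficient cells were 1.72-fold higher than treated wild type (0.79 ± 0.11, 95% CI of the fold 1.45 to 2.05, adjusted p = 0.000346). Against untreated wild type they stood at -0.32 (adjusted p = 0.0994), a difference that passed only after quantile normalisation (-0.42, adjusted p = 0.0443).

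Ccr1 is a receptor for CCL3 and CCL5 found on monocytes, neutrophils and dendritic cells. It fell in wild type, and treated Irf3 deficient cells also stood below untreated wild type. It read 10.80 and 10.83 after PBS, 9.99 and 9.67 after the extract, and 9.60, 9.92 and 9.32 after the extract without Irf3. Every treated array lay below both untreated arrays, and the treated genotypes overlap. The fall in wild type was -0.98 ± 0.17 (SE; 95% CI of the fold 1.52 to 2.57, adjusted p = 0.00152), and treated Irf3 deficient cells stood -1.20 ± 0.16 from untreated wild type (95% CI of the fold 1.81 to 2.91, adjusted p = 0.00051). That value ranked 47 from the bottom among all genes. The treated genotypes differed by -0.21 (95% CI -0.56 to 0.13, adjusted p = 0.45).

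Cells of the monocyte and macrophage kind carry Ccr1, Ccr2 and Cx3cr1, and their markers moved in the same arrays. Of 10 measured markers in a list of 12 (Fcgr1, Mertk, C1qa, C1qb, C1qc, Adgre1, Csf1r, Cd14, Cd163 and Apoe measured), 9 fell and 1 rose in treated wild type (median -1.55), and 8 were higher and 2 lower in Irf3 deficient than in treated wild type (median 1.04). Over all genes, 9.23% fell and 8.35% rose in the first comparison, and 10.7% were higher and 9% lower in the second. The mean level of the list was 11.4 to 11.7 in untreated wild type, 10.1 to 10.6 in treated wild type and 10.9 to 11.1 in Irf3 deficient arrays. The 2 treated wild type arrays lay far apart for some markers (C1qa at 9.38 and 10.54, C1qb at 11.61 and 12.58). They were close for others (Adgre1 at 9.88 and 9.96). Adgre1, a macrophage surface receptor gene, followed the order of Cx3cr1, at -2.05 in wild type and 1.17 between the treated genotypes. The cDC2 markers Itgam, Mgl2, Clec10a and Cd209a had the same directions as Cx3cr1 and Ccr2 in both comparisons. Zbtb46, of the same list of 10, had the opposite directions. It stood at 0.38 in wild type (adjusted p = 0.0403) and -0.49 between the treated genotypes (adjusted p = 0.00539). The other 5 of that list did not pass in wild type. Fcgr1, the gene of CD64 and a marker against which the cells were gated, also moved opposite to Cx3cr1 and Ccr2, by 1.79 and -1.67. The part of these cells, or of a shift among the cDC2s, in the receptor results was not tested. In pools such as these, fewer cells of a type and less RNA per cell cannot be told apart.

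Cxcr3, the receptor of CXCL9, CXCL10 and CXCL11, is best known on T and NK cells. It read 7.35 and 7.70 after PBS, 7.13 and 7.05 after the extract, and 7.10, 7.16 and 7.29 after the extract without Irf3, all below the median of gene means (7.92). The untreated arrays were the highest but spread more than the others. The fall in wild type of -0.43 ± 0.13 (SE, adjusted p = 0.0342) was lost when only the wild type groups were fitted (adjusted p = 0.0613) and without replicate 2 of untreated wild type (-0.26, adjusted p = 0.217). It was also lost without replicate 1 (0.0697) or 2 (0.168) of treated wild type, or without replicate 2 of the Irf3 deficient group (0.056). Markers of T and NK cells had a mean level of 7.44 to 7.57 over all 7 arrays, with 4 of the 8 measured below the lower quartile in each group, and 3 rose and 1 fell in treated wild type. Over all genes, 8.35% rose and 9.23% fell there. The part of T and NK cells in the Cxcr3 value was not tested.

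Ccr6, the CCL20 receptor that draws dendritic cell precursors and other cells towards epithelia, did not pass in any comparison. It read 7.56 and 7.57 after PBS, 7.27 and 7.35 after the extract, and 7.40, 7.46 and 7.64 after the extract without Irf3. The treated wild type arrays were the lowest. Their difference from untreated wild type was -0.26 (95% CI -0.51 to -0.01, adjusted p = 0.154), on a dim probeset without a detection call.

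Ccr9, the CCL25 receptor known for homing to the small intestine and for its presence on plasmacytoid dendritic cells, differed between the genotypes. It read 6.81 and 6.84 after PBS, 6.59 and 6.91 after the extract, and 9.28, 9.25 and 9.54 after the extract without Irf3. The wild type arrays, treated or not, overlap near the lower quartile of gene means (6.70), and the Irf3 deficient arrays stand far above them. The wild type difference was -0.08 (95% CI -0.37 to 0.22, adjusted p = 0.789). Irf3 deficient cells were 6.08-fold above treated wild type (log2 difference 2.60 ± 0.13 SE, 95% CI of the fold 5.03 to 7.35, adjusted p = 5.58e-08) and 5.77-fold above untreated wild type (2.53 ± 0.13, adjusted p = 2.48e-07). These values ranked 3 and 4 from the top among all genes. Leaving out any 1 array kept the difference from treated wild type between 2.44 and 2.77. The wild type values are dim, without a detection call.

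Markers of plasmacytoid dendritic cells were measured in the same arrays. Of 8 measured in a list of 10, 0 were higher and 3 lower in Irf3 deficient than in treated wild type cells. The 3 were Bst2 (-2.25), Spib (-1.23) and Pacsin1 (-0.76), which rose in treated wild type by 2.44, 1.05 and 0.58. Siglech, Tcf4, Ly6d, Cox6a2 and Cd300c did not pass between the treated genotypes. Against untreated wild type, 1 was higher (Tcf4 at 0.38, adjusted p = 0.019, a call lost under 5 of 15 alternatives). Over all genes, 10.7% were higher and 9% lower between the treated genotypes, and 5.89% were higher against untreated wild type. The part of plasmacytoid dendritic cells in the Ccr9 result was not tested. Siglech, their defining surface lectin gene, read 7.50, 7.61 and 7.59 in the Irf3 deficient arrays, 7.85 and 7.76 in untreated wild type and 7.68 and 7.31 in treated wild type. The mean level of the list was 8.73 to 8.84 in Irf3 deficient arrays, 8.75 to 8.84 in untreated and 9.21 to 9.35 in treated wild type.

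Ccr9 lies on chromosome 9 in a cluster of chemokine receptor genes, and 4 of the 10 measured genes before it were also higher in Irf3 deficient than in treated wild type cells. Within 10 measured genes before Ccr9 and 7 after it, in the order of the RefSeq table, 5 of 17 were higher in Irf3 deficient cells and 0 lower, against 10.7% of all genes higher. Next to Ccr9, Lztfl1, a gene of protein traffic in cilia, read 9.74 and 9.81 after the extract in wild type and 10.59, 11.09 and 10.88 without Irf3, a difference of 1.07 ± 0.16 (SE, adjusted p = 0.000352). Its other probeset gave 1.10. The amino acid transporter genes Slc6a20a and Slc6a20b, which are similar and may share probes, followed at 0.80 (adjusted p = 0.00034) and 0.44 (adjusted p = 0.0156).

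The call for Slc6a20b was lost without replicate 1 of treated wild type or of the Irf3 deficient group (0.32 at the lowest). Limd1, at 0.29 (adjusted p = 0.0432), lost its call under 10 of 15 alternatives, among them each array left out in turn. The fifth is Ccr2, farthest on the other side. Between it and Ccr9 lie Fyco1, Cxcr6, Xcr1, Ccr1, Ccr1l1 and Ccr3, which stood between -0.21 and 0.34 and did not pass. Between the wild type groups Lztfl1 (-0.30), Slc6a20a (0.29), Slc6a20b (0.15) and Limd1 (-0.05) did not pass, while Fyco1 rose by 0.52 (adjusted p = 0.0102), a call lost without replicate 2 of either wild type group. What sets these neighbours apart was not tested.

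**Figure D2:**
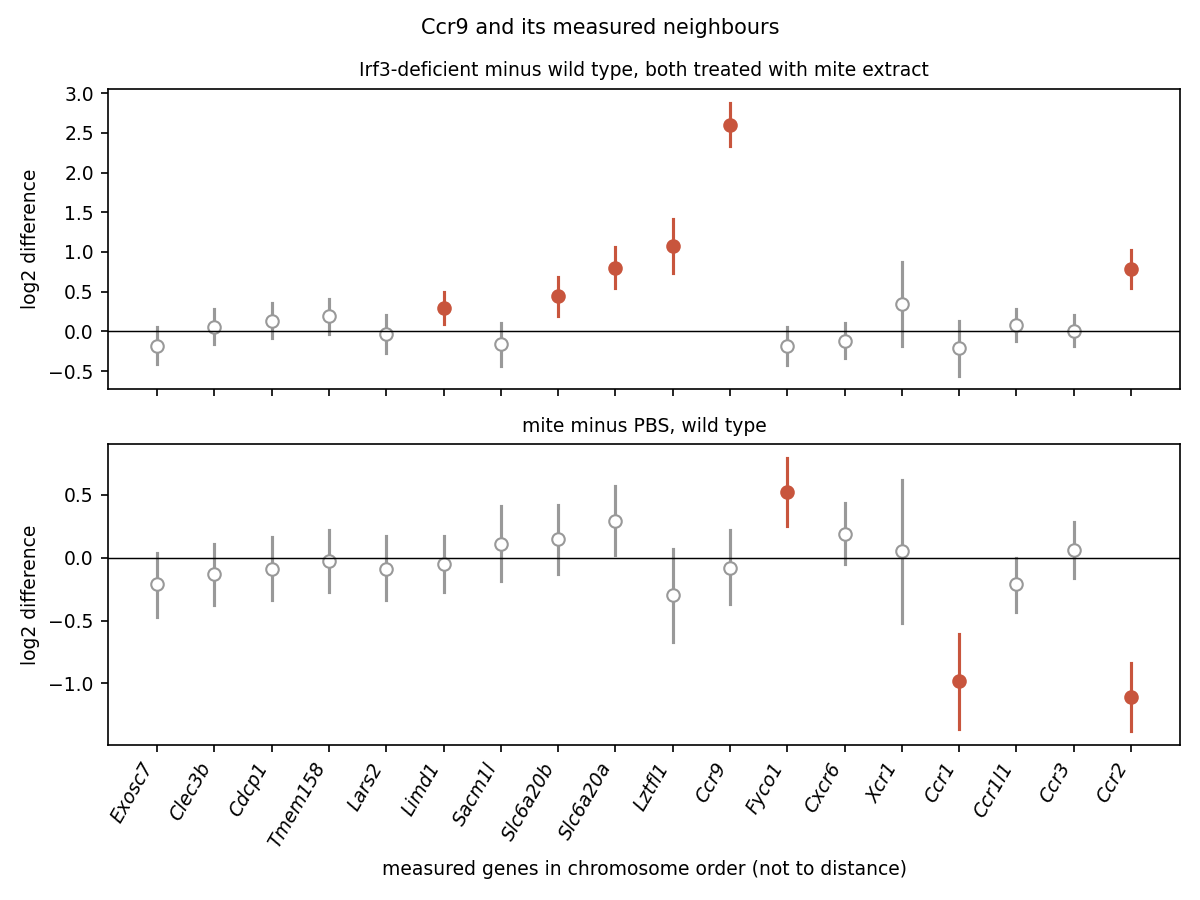
Log2 difference (vertical axes, with a different scale in each panel) of Ccr9 and its measured neighbours in chromosome order, between the treated genotypes (top) and between treated and untreated wild type (bottom), with 95% confidence intervals; filled points passed an adjusted p of 0.05. Lztfl1, Slc6a20a and Slc6a20b on 1 side of Ccr9 are higher in Irf3 deficient cells, and the genes just past it on the other side are not.

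The sequence before the start site is shown for Ccr9, Ccr1, Ccr2 and Cx3cr1, since these receptors of chromosome 9 show the 3 patterns that differ most: higher without Irf3 than in both wild type groups (Ccr9), low in both treated groups (Ccr1), and lowest in treated wild type (Ccr2 and Cx3cr1). Each run is the 250 bases before the RefSeq start (GRCm38.p6), 5′ to 3′ on the strand of the gene. Capitals mark matches, on either strand, to the kappa B consensus (in Ccr1) or to a core of the interferon-stimulated response element spelled GAAANNGAA (in Ccr2).
Ccr9, chr9:123766961-123767210, plus strand: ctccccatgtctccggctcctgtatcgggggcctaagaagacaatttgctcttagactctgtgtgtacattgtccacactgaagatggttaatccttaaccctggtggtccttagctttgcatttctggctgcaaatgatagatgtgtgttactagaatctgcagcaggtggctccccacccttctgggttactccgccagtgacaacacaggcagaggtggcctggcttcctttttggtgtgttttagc
Ccr1, chr9:123968693-123968942, minus strand: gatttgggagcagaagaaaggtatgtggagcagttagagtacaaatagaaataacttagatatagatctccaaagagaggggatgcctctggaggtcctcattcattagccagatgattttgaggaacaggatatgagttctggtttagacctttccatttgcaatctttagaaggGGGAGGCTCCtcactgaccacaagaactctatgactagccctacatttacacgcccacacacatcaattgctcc
Ccr2, chr9:124101933-124102182, plus strand: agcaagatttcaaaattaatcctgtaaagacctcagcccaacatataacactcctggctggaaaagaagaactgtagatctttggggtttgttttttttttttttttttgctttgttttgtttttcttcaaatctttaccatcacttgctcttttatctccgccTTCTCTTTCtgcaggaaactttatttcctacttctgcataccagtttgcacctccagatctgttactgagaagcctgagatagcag
Cx3cr1, chr9:120068297-120068546, minus strand: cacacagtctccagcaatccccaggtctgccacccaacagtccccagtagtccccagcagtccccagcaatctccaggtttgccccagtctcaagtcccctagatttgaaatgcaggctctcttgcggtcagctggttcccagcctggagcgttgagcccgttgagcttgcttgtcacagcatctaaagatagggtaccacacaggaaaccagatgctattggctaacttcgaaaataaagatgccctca

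The kappa B match stands 74 to 65 bases before the start in Ccr1, and the interferon-stimulated core 86 to 78 bases before it in Ccr2. In all, 8 of the 9 receptors had an entry in the promoter table, with 11 start sites; Ccr7 had none. The kappa B consensus was in 3 of these 11 windows (1 each of Ccr1, Ccr6 and Ccrl2) and in 7.25% of all 32851 promoter windows of that length. The interferon-stimulated core was in 1 of the 11 and in 7.13% of all, and a gamma-activated site, spelled TTCNNNGAA, in 1 of the 11 (Ccr6) and in 7.02% of all. The forms of 2 motifs were changed after a first search. A looser kappa B form, with an A after the run of G and free bases in the middle, had matched 4 of the 11 windows, also that of Ccr9 (83 to 74 bases before the start), and 17.6% of all, so the lack of a match in Ccr9 depends on the form. A form of the interferon-stimulated core longer by 1 base had matched 0 of the 11 and 2.98% of all, so the match in Ccr2 does too. Matches of different motifs did not overlap in the printed windows. They are matches of letters and no measure of binding.

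Between the treated genotypes, 3 of the 9 receptors passed (Ccr2, Cx3cr1 and Ccr9), all higher in Irf3 deficient cells, where 19.7% of all genes passed and 10.7% were higher. All 3 belong to the tissue and inflammatory receptors, which make up 6 of the 9. The other 3 of that kind (Ccr1, Ccr6 and Cxcr3) did not pass. A called difference of at least 2-fold was seen in 2 of the 9 (Cx3cr1 and Ccr9), against 2.85% of all genes, and the arrays did not overlap for 5 of the 9, against 43.7%. The median over the 9 was 0.19, against 0.00 over all genes. Against untreated wild type, treated Irf3 deficient cells also had 3 of 9 that passed, Ccr7 and Ccr9 higher and Ccr1 lower, where 10.8% of all genes passed (5.89% higher and 4.9% lower). Differences of Ccr9 and Ccr1 were at least 2-fold, as were those of 1% of all genes, and the arrays did not overlap for 6 of the 9, against 39.1%. After quantile normalisation 5 passed there, 2 higher and 3 lower, with Ccr2 and Cxcr3 added. The order of groups was the same for Ccr2, Cx3cr1, Ccr6 and Cxcr3, with untreated wild type highest and treated wild type lowest. For Ccr6 no 2 groups differed past the threshold, and for Cxcr3 the Irf3 deficient group did not pass against either wild type group.

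**Figure D3:**
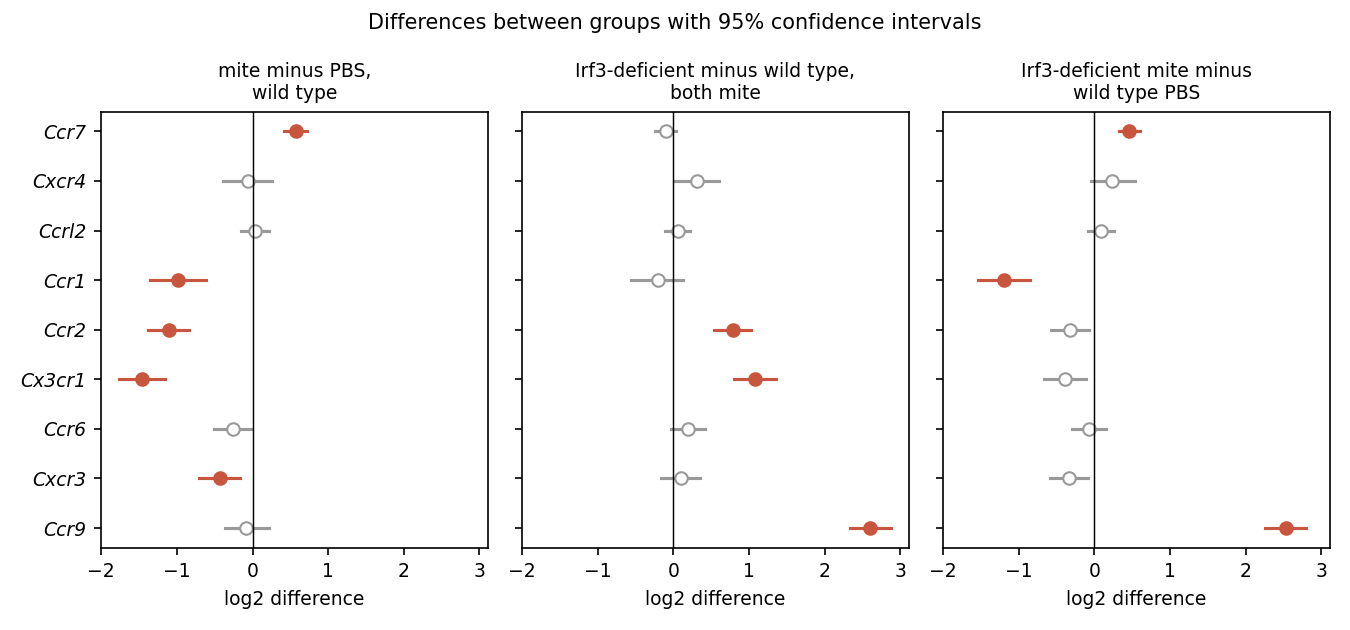
Log2 difference (horizontal axis) with its 95% confidence interval for each receptor in the 3 comparisons; filled points passed an adjusted p of 0.05 over all genes. Ccr7 lies to the right in both comparisons with untreated cells, Ccr1 to the left in both, and Ccr9 far to the right in both comparisons that hold Irf3 deficient cells.

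A further list held chemokine receptors outside the 9 and the chemerin receptor Cmklr1. Of these, Cxcr5, Cmklr1 and Cxcr2 passed in at least 1 comparison. Of 15 measured in a list of 16, 1 rose and 1 fell in treated wild type, 2 were higher and 1 lower in Irf3 deficient than in treated wild type, and 1 was higher than in untreated wild type. These are 2, 3 and 1 of 15, where 17.6%, 19.7% and 10.8% of all genes passed. Cxcr5, the CXCL13 receptor that leads cells to B cell follicles, read 7.06 and 7.34 after PBS, 9.71 and 9.88 after the extract, and 8.47, 8.52 and 8.48 after the extract without Irf3. It rose 6.04-fold in wild type (adjusted p = 3.48e-08), and Irf3 deficient cells were 2.47-fold below that level (adjusted p = 6.01e-06) but 2.44-fold above untreated wild type (adjusted p = 3.38e-05). Cmklr1, the signalling receptor for chemerin, stood at -0.91 in wild type (adjusted p = 0.00559), or -0.54 without replicate 2 of untreated wild type (adjusted p = 0.0692). It was higher by 1.07 in Irf3 deficient than in treated wild type cells (adjusted p = 0.000941), or by 0.70 without replicate 1 of treated wild type and 1.44 without replicate 2. Cxcr2, a neutrophil receptor, was higher there by 1.00 (adjusted p = 0.000845), and it was the 1 higher among 6 neutrophil markers, whose mean level was 6.96 to 7.24 over all arrays.

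Ligand genes of the 9 receptors moved in both directions in the same cells. Of 18 measured in a list of 19, 8 rose and 2 fell in treated wild type (median 0.33). The shares over all genes were 8.35% and 9.23%. In Irf3 deficient against treated wild type cells 4 were higher and 6 lower (median -0.16), beside 10.7% and 9% of all genes. The Cxcr3 ligand genes rose most, Cxcl9 by 2.57 ± 0.12 (SE), Cxcl10 by 2.72 ± 0.16 and Cxcl11 by 3.50 ± 0.17. All 3 were lower in Irf3 deficient than in treated wild type cells (-1.24, -1.17 and -2.34). They still stood above untreated wild type, by 1.33 (adjusted p = 2.51e-05), 1.54 (adjusted p = 6.67e-05) and 1.16 (adjusted p = 0.000681). The Ccr2 ligand genes Ccl2 and Ccl7 did not pass in wild type (-0.49 and -0.47). They were higher in Irf3 deficient than in treated wild type cells by 1.15 (adjusted p = 0.000138) and 1.42 (adjusted p = 7.9e-05). Ccl8, another Ccr2 ligand gene on a dim probeset, went the other way. It rose by 0.52 in wild type (adjusted p = 0.0133) and stood at -0.61 between the treated genotypes (adjusted p = 0.00257). Ccl12, also a Ccr2 ligand gene, did not pass in any comparison.

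Ccl5, a ligand of Ccr1, rose by 1.26 and was lower without Irf3 at -1.55, while Ccl6 and Ccl9 fell in wild type (-0.70 and -0.51) and were higher without Irf3 (0.68 and 0.69). Ccl19, a ligand of Ccr7, stood at 0.39 (adjusted p = 0.0445), a call lost under 9 of 16 alternatives. The Cx3cr1 ligand gene Cx3cl1 rose by 0.50 (adjusted p = 0.00752), a call lost without replicate 1 of untreated wild type (adjusted p = 0.0686). The Ccr9 ligand gene Ccl25 read between 7.59 and 7.85 in all arrays and did not pass, nor did Ccl20, Cxcl12 and the chemerin gene Rarres2.

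**Figure D4:**
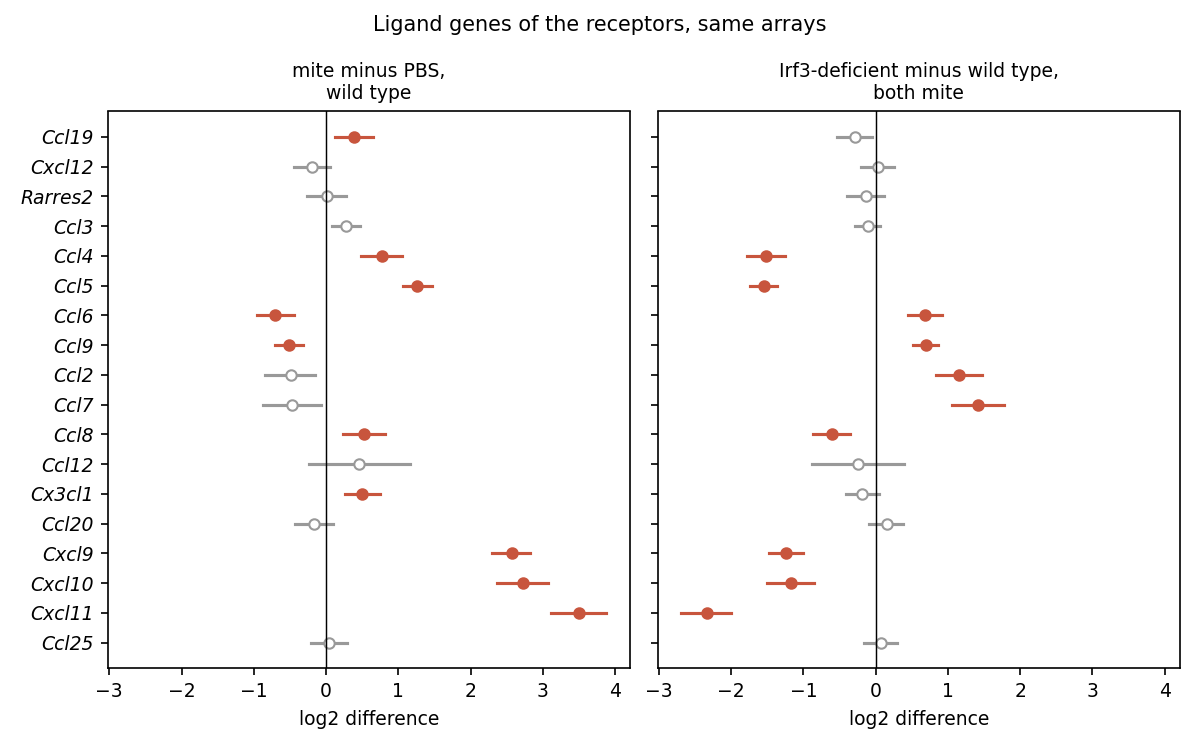
Log2 difference (horizontal axis) with its 95% confidence interval for 18 ligand genes of the receptors, between treated and untreated wild type (left) and between the treated genotypes (right); filled points passed an adjusted p of 0.05. Cxcl9, Cxcl10 and Cxcl11 are far to the right on the left panel and to the left on the right panel. Ccl2 and Ccl7 are to the right on the right panel, and Ccl8 is to the left there.

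Receptors for other attractants included more that fell than rose in wild type. Of 12 measured in a list of 15, 5 fell, 1 rose and 6 did not pass, where 9.23% of all genes fell and 8.35% rose. In Irf3 deficient against treated wild type cells 2 were higher and 0 lower, beside 10.7% and 9% of all genes. The complement receptor gene C5ar2 (-1.01, adjusted p = 0.000213) and the leukotriene B4 receptor gene Ltb4r1 (-0.81, adjusted p = 0.000752) had the lowest p among the falls. Both were also lower in treated Irf3 deficient cells than in untreated wild type (-0.84 and -0.69), as Ccr1 was. C3ar1 was higher by 1.40 in Irf3 deficient cells (adjusted p = 0.000595), or by 0.89 without replicate 1 of treated wild type and 1.90 without replicate 2. C5ar1, also higher by 1.40 (adjusted p = 0.0105), stood at 0.63 (adjusted p = 0.0939) without replicate 1 of treated wild type and at 2.16 without replicate 2. Gpr183, an oxysterol receptor that positions dendritic cells in lymphoid tissue, rose by 0.35 (adjusted p = 0.0396), a call lost under 9 of 16 alternatives.

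Genes of signalling below these receptors split. Of 28 measured in a list of 30, 4 rose and 8 fell in treated wild type. The shares over all genes were 8.35% and 9.23%. In Irf3 deficient against treated wild type cells 7 were higher and 3 lower, beside 10.7% and 9% of all genes. Arrb1, a beta-arrestin that desensitises receptors, fell by 1.20 (adjusted p = 1.24e-05) and was higher by 0.81 without Irf3 (adjusted p = 0.000151). Pik3cg, the lipid kinase acting under G proteins, fell by 1.01 (adjusted p = 0.000355) and was higher by 0.85 without Irf3 (adjusted p = 0.000595). Rgs1, which shortens G protein signals, rose by 0.63 (adjusted p = 0.000913), and the G protein subunit gene Gnai3 by 0.75 (adjusted p = 0.00288). Both were lower in Irf3 deficient than in treated wild type cells, at -0.41 (adjusted p = 0.00798) and -0.53 (adjusted p = 0.0126). Other genes of the list did not reverse in this way. Gnb2 did not pass in wild type (-0.03) but was lower between the treated genotypes (-0.45, adjusted p = 0.00495). Pik3r5 rose by 0.54 in wild type (adjusted p = 0.00423) and was higher by 0.31 without Irf3 (adjusted p = 0.0482). With 1 array left out, the value between the treated genotypes ran from -0.49 to -0.37 for Rgs1 and from -0.56 to -0.35 for Gnb2.

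The genes most like 3 receptors over the 7 arrays were found among those whose group means span at least 1 log2 unit, by Pearson correlation. With 3 groups these values mostly restate the group means, and they are given as a description. For Ccr7 they were Cd274, Il2ra, Ankrd33b, Adgrg6 and Il12b, at 0.988 to 0.989; Cd274, the gene of PD-L1, had means of 11.72 in untreated and 13.29 in treated wild type and 12.90 in Irf3 deficient arrays. For Cx3cr1 they were Mrc1, Ms4a7, Col14a1, Csf1r and Itgam, at 0.984 to 0.991, of which Mrc1, Ms4a7 and Csf1r are best known from macrophages. For Ccr9 they were Clec4e, St6galnac2, BC018473, 4933400A11Rik and Olr1, at 0.986 to 0.990. Clec4e, the gene of the lectin Mincle, had means of 9.74, 9.68 and 11.38 in the same order of groups. The steps were larger for BC018473 (6.43, 6.67 and 13.10) and St6galnac2 (8.32, 8.14 and 11.83).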

How the data were processed

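Affymetrix Mouse Gene 1.0 ST arrays measured 7 pools of sorted cells, and the deposited values are log2 expression values per probeset, per the labels and the range of the values. Per the submitters' processing notes, the tools were R 3.2.1, oligo and RMA, listed with no role or order. Array medians lay between 7.60 and 7.69. No detection calls, scan dates or genome build were given in the sources used here.

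Probesets carrying 1 gene symbol in the platform annotation were kept, and symbols were updated by Entrez identifier through RefSeq GRCm38.p6, which matched 19856 of 19939 genes. Where a gene had several probesets the brightest by mean was used; each receptor had 1. Group means were fitted over all 7 arrays in limma 3.58.1 under R 4.3.3 (lmFit, eBayes with an intensity trend; 4 residual and 8.34 prior degrees of freedom). Tests were two-sided, adjusted by Benjamini-Hochberg over all genes at a threshold of 0.05; every adjusted p-value given comes from this fit, or from the named alternative of it. The fit was tested on simulated data. Members and lists were chosen with earlier results of these data known. Named genes are drawn from the 9 receptors, up to 2 called genes per direction, list and comparison, the measured neighbours of Ccr9 and the 5 genes most like Ccr7, Ccr9 and Cx3cr1. Not all genes of this rule are described above. Among those left out, S1pr3 (1.06), Ptger4 (0.28) and Rgs2 (0.38) were higher in treated Irf3 deficient cells than in untreated wild type. Ccl4 (-0.75) and Grk5 (-0.53) were lower there. Named outside this rule, after their values were seen, were C5ar1, Gnai3 between the treated genotypes and the marker genes given with values. So were other ligand genes (Ccl2, Ccl8, Ccl12, Ccl19, Cx3cl1, Ccl20, Ccl25, Cxcl12 and Rarres2) and further comparisons of ligand and signalling genes the rule names. Promoter windows come from RefSeq (GRCm38.p6). Alternatives covered the choice of probesets, trend, scaling, array weights, dim genes, the arrays fitted, replicate numbers and each array left out.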

Additional observations from a re-analysis of the deposited data

How the results depend on the processing

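For the 9 receptors in the 3 comparisons, 396 of 414 values under an alternative kept their direction and side of the threshold; 5 lost a call, all of Cxcr3 in wild type, 7 gained one and 6 changed sign, none of them a called value. The changes of sign were Ccrl2 after quantile normalisation (-0.10 in wild type and -0.01 for Irf3 deficient against untreated wild type) and without replicate 2 of treated wild type (-0.01), Cxcr4 without replicate 2 of untreated wild type (0.08) or replicate 1 of treated wild type (0.06), and Ccr9 in wild type without replicate 1 of treated wild type (0.09). With 1 array left out, Ccr9 in wild type ran from -0.24 to 0.09 and Cxcr4 from -0.20 to 0.08. The count of receptors that passed for Irf3 deficient against untreated wild type became 5 after quantile normalisation. With 1 array left out the counts ran from 4 to 5 in wild type, 3 to 4 between the treated genotypes and 3 to 4 for Irf3 deficient against untreated wild type. Over all genes, the counts with 1 array left out ran from 2333 (without replicate 2 of treated wild type) to 3725, against 3505; from 2562 (without the same array) to 3906, against 3933; and from 749 (without replicate 1 of untreated wild type) to 2359, against 2153, with 1377 without replicate 2 of the Irf3 deficient group. Same-numbered arrays did not deviate together (correlations of -0.23 to 0.18). With 2 arrays in each wild type group, this check cannot settle whether the numbers pair the arrays. With the replicate number as a block, 3118, 3249 and 1426 genes passed in the 3 comparisons, and each receptor kept its call. With the numbers of the untreated arrays crossed, a choice made after seeing the data, 3361 passed in wild type. Dim probesets (Ccr6, Cxcr3 and Ccr9 in wild type) have no detection call, and the number of arrays limits precision.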
